A study of Mus musculus with 7 samples.

Results

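The genes described here are 10 transcription factor and early response genes of the mouse: the AP-1 subunits Fos, Fosb, Fosl1, Fosl2, Jun, Junb and Jund, and the immediate early genes Egr1, Ier2 and Ier3. They were chosen by name, and all 10 of 10 were found among the 13376 rows of the expression table. All 10 also passed the filter on low values, a mean of at least 1 FPKM (fragments divided by transcript length and by library depth). The cells were C2C12, a mouse myoblast line. They were kept proliferating and treated with an siRNA against the long noncoding RNA lnc-31 (si-lnc-31, 2 libraries, genotype given as lnc31 knockdown) or with a control siRNA (si-scr, 2 libraries, here called scrambled siRNA). A second experiment sequenced RNA recovered from C2C12 cells with biotinylated antisense probes specific for lnc-31 (ODD, 1 library) or with aspecific lacZ probes (1 library). The labels give no time between transfection and harvest. The labels also leave unsaid whether replicate libraries were grown as separate cultures, so the p-values below reflect a spread that may be technical.

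AP-1 is a dimer of basic leucine zipper (bZIP) proteins. Jun proteins pair with one another or with Fos proteins, while Fos proteins need a Jun partner, and the dimers bind the sequence TGACTCA. Many of its genes are immediate early genes, switched on by growth factors and stress through MAP kinases without new protein synthesis, and the serum response factor SRF drives several of them. In myoblasts, Jun and Fos are known to oppose MyoD and the start of differentiation.

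Promoter stretches are shown for Jund, which passed the test described below, and for Jun, Fos and Fosl2, which did not. Jun and Fos are the founding members of their families. Fosl2 was picked because it holds a site of the type bound by Egr1, the other gene that passed. The stretches are the 180 bases before the start that RefSeq annotates on GRCm38.p6. They are written 5′ to 3′, with the matched motifs in capitals.
Jund: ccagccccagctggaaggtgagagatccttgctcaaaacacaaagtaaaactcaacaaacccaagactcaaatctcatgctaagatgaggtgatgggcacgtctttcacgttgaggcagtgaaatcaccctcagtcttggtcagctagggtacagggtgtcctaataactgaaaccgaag
Jun: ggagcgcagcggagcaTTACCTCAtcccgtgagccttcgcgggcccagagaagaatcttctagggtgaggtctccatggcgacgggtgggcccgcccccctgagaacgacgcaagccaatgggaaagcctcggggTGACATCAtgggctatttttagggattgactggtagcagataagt
Fos: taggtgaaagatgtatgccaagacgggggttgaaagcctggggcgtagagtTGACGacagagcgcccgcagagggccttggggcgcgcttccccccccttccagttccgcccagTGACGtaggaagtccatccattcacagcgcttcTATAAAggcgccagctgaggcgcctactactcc
Fosl2: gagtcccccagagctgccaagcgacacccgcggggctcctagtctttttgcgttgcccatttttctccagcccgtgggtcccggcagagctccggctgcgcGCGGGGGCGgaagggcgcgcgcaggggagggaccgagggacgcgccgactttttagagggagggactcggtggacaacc
The stretches lie at chr8:70697559-70697738, plus strand (Jund), chr4:95052223-95052402, minus strand (Jun), chr12:85473710-85473889, plus strand (Fos) and chr5:32136292-32136471, plus strand (Fosl2). Motifs were searched on both strands of the 250 bases before the start of the 7 genes with an entry in the promoter table. Egr1, Ier2 and Fosl1 had no entry and were not searched. Positions count back from -1, the base before the start. In Jun, the capitals mark TTACCTCA at -164 to -157 and TGACATCA at -45 to -38, variants of the AP-1 site, which stand in 0.728% and 2.93% of all 32851 annotated promoter windows of this length. In Fos they mark TGACG, the core of the cAMP response element, at -129 to -125 and at -66 to -62 (17.8% of windows), and TATAAA at -33 to -28 (12.4%). In Fosl2 they mark GCGGGGGCG, a binding site of Egr1, at -79 to -71 (2.57%). The same site was found in Fosb at -50 to -42, next to TGACG at -60 to -56. Both Fosb matches lie inside the annotated gene span, which covers the last 73 bases of that window, rather than before it. Junb had TGACG at -106 to -102. The consensus TGACTCA (4.46% of windows), the full element TGACGTCA (1.55%), whose letters include TGACG, and the SRF site known as the CArG box (1.47%) were found in none of the 7 windows. The Jund and Ier3 windows had no match to any of the 8 motifs. These matches are descriptions of letters in a short window, and the Fos serum response element is known to lie upstream of it. The Jund window was also the one of lowest GC content, 47.6% against 54.4% to 68.8% in the other 6 and a median of 52.4% over all windows.

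**Figure D1:**
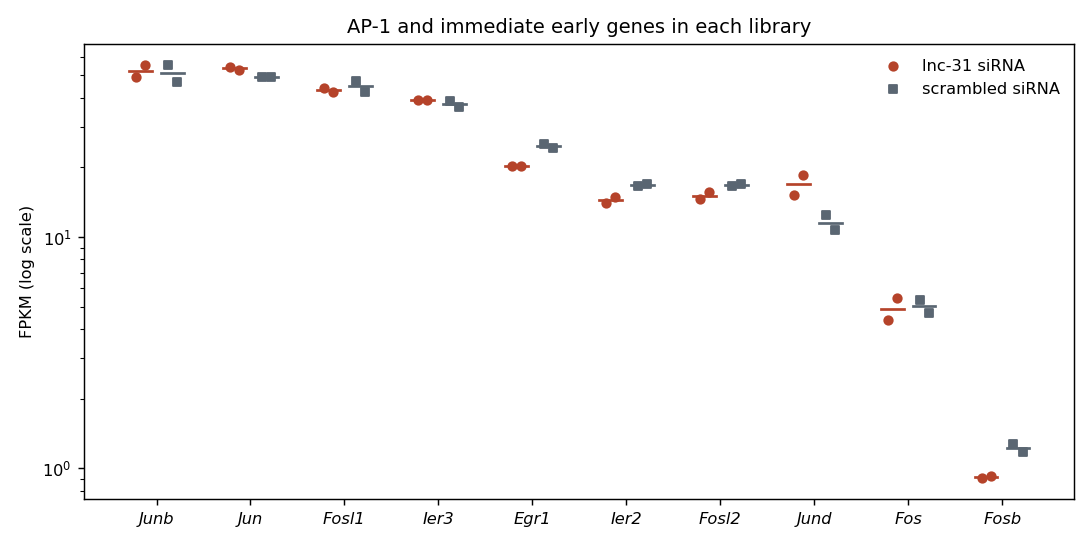
FPKM of each gene on a log axis in the 2 lnc-31 siRNA libraries (circles) and the 2 scrambled siRNA libraries (squares), with the group mean as a line. Jun, Junb, Fosl1 and Ier3 lie between 36.4 and 55.7 FPKM in every library and Fosb near 1. The groups stand apart most visibly for Jund, Fosb and Egr1.

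The libraries were first checked as a whole. Depth is unknown, because FPKM is not a count. Sums of FPKM ran from 1516000 to 2466000 per library and median FPKM from 10.8 to 11.2. Scrambled siRNA 2 stood apart in the mitochondrial row mt-Nd2, with 395100 FPKM against 2876 to 3401 FPKM in the other 3 libraries. On the first principal component (41.4% of the variance) lnc-31 siRNA 1 scored 39.1 and the other 3 libraries -16.3 to -10.4, so values without each library are given beside the calls. The row that names Mir31, at the lnc-31 locus, also carries the name XLOC_026180, so its values may not come from a single RNA. It had 12.1 and 14.1 FPKM with lnc-31 siRNA, against 13.4 and 15.6 with scrambled siRNA. The row was not called (limma, log2 fold change of FPKM + 1 -0.14, SE 0.099, adjusted p = 0.38). The targeted RNA was therefore not shown to fall, and every direction below is that of the libraries labelled lnc-31 siRNA. Of 6 myoblast markers, 5 had a row, and 4 of these were called higher with lnc-31 siRNA and none lower. Over all rows, 5.64% were called higher and 6.78% lower. The median log2 fold change of the 5 was 0.25. Myog, the myogenin gene of early differentiation, had 107 and 108 FPKM with lnc-31 siRNA, against 58.0 and 71.7 FPKM with scrambled siRNA (log2 fold change 0.73, limma adjusted p = 0.013), and was called with any 1 library left out. Myod1 (0.36), the cadherin gene Cdh15 (0.25) and the desmin gene Des (0.24) rose too. Cdh15 and Des lost their calls with any 1 library left out and with a constant prior variance, and Myod1 lost its call without scrambled siRNA 1, scrambled siRNA 2 or lnc-31 siRNA 2. Myf5 did not pass (-0.10 on the log2 scale, limma adjusted p = 0.16), and Pax7 had no row. The part of this marker difference in the results below was not tested. Of 14 markers of other cell types, 9 had no row. The neuronal tubulin Tubb3 was at 10.6 and 11.2 FPKM with lnc-31 siRNA and at 10.4 and 11.2 FPKM with scrambled siRNA, and Cd68, Hba-a1 and Krt8 stayed under 2 FPKM in every library.

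AP-1 RNA in these myoblasts was mostly Jun, Junb and Fosl1, with little Fos and almost no Fosb. In the lnc-31 siRNA libraries the order of mean FPKM was Jun (53.8), Junb (52.5), Fosl1 (43.2), Ier3 (39.2), Egr1 (20.3), Jund (16.9), Fosl2 (15.1), Ier2 (14.5), Fos (4.91) and Fosb (0.916). In the scrambled siRNA libraries it was Junb (51.2), Jun (49.2), Fosl1 (45.0), Ier3 (37.6), Egr1 (24.8), Ier2 (16.8), Fosl2 (16.7), Jund (11.6), Fos (5.03) and Fosb (1.23). Neighbours whose libraries overlapped in level were Jun and Junb in both groups, Jund with Fosl2 and Fosl2 with Ier2 in the lnc-31 siRNA libraries, and Ier2 with Fosl2 in the scrambled siRNA libraries. All other neighbours stood apart. Averaged over the 4 libraries, the levels lay between the 14.6th percentile of all rows (Fosb) and the 86.3rd (Junb). The median gap between libraries of a group was 0.06 on the log2(FPKM + 1) scale with lnc-31 siRNA and 0.08 with scrambled siRNA, against 0.07 in each group over all tested rows, so these genes were as steady between libraries as the table at large. Jund, Junb and Fos were the widest, with gaps of 0.27, 0.16 and 0.26 with lnc-31 siRNA and 0.20, 0.25 and 0.16 with scrambled siRNA.

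Against scrambled siRNA, 1 of the 10 genes rose (Jund) and 1 fell (Egr1) with lnc-31 siRNA, and 8 did not pass the test. The test was limma on log2(FPKM + 1) over 11500 rows, with an adjusted p under 0.05 as the threshold. Over all rows it called 12.4% (5.64% higher and 6.78% lower), so 2 of 10 is near the share in the table as a whole. Their median log2 fold change was -0.04, against -0.01 over all rows. The groups did not overlap in 7 of the 10 genes, against 60.2% of all rows. In bulk RNA, a change in the share of cells that express a gene and a change in RNA per cell cannot be told apart.

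Jund encodes the Jun protein that is widely present in resting cells and is known to slow growth in fibroblasts. It had 15.2 and 18.6 FPKM in the lnc-31 siRNA libraries, against 12.4 and 10.7 FPKM in the scrambled siRNA libraries. The lowest lnc-31 siRNA library was thus above the highest scrambled siRNA library. Mean FPKM was 16.9 ± 2.34 with lnc-31 siRNA and 11.6 ± 1.20 with scrambled siRNA (SD, n = 2 each), 1.46 times as high, and the log2 fold change was 0.51 (limma, 95% interval 0.24 to 0.78, adjusted p = 0.040). The call was near the threshold. It was lost with no filter on low rows (adjusted p = 0.051), with a constant prior variance (0.064), with the replicate number as a block (0.061), and when lnc-31 siRNA 2 (0.11), scrambled siRNA 1 (0.083) or scrambled siRNA 2 (0.15) was left out. It held when lnc-31 siRNA 1 was left out (0.038), while the fold change stayed between 0.38 and 0.64.

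The other Jun genes did not pass. Jun, the strongest activator of the family, had 54.5 and 53.0 FPKM with lnc-31 siRNA, against 49.5 and 49.0 FPKM with scrambled siRNA. These groups did not overlap, but the difference was small (log2 fold change 0.12, 95% interval 0.02 to 0.22, limma adjusted p = 0.11). Junb, a weaker activator that can oppose Jun, had 49.5 and 55.4 FPKM with lnc-31 siRNA, against 55.7 and 46.8 FPKM with scrambled siRNA. The scrambled siRNA libraries enclosed the other group (log2 fold change 0.04, 95% interval -0.20 to 0.27, adjusted p = 0.84), and its sign turned when library 2 of either group was left out.

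Among the Fos genes none passed the limma test (0 of 4, against 1 of 4, Fosl2, at an unadjusted p under 0.05). Fosl1 encodes Fra-1, which lacks the activation domain of Fos and is prominent in growing mesenchymal cells. It had 43.9 and 42.4 FPKM with lnc-31 siRNA, against 47.3 and 42.6 FPKM with scrambled siRNA, and the groups overlapped (log2 fold change -0.06, 95% interval -0.21 to 0.10, adjusted p = 0.58). Fosl2, which encodes Fra-2, had 14.5 and 15.6 FPKM with lnc-31 siRNA, against 16.6 and 16.9 FPKM with scrambled siRNA. Its groups did not overlap (log2 fold change -0.14, 95% interval -0.28 to -0.01, adjusted p = 0.15). Fos, the rapidly induced subunit, had 4.39 and 5.43 FPKM with lnc-31 siRNA, against 5.36 and 4.70 FPKM with scrambled siRNA, and the groups overlapped (log2 fold change -0.03, 95% interval -0.31 to 0.24, adjusted p = 0.87). Fosb had 0.906 and 0.926 FPKM with lnc-31 siRNA, against 1.27 and 1.18 FPKM with scrambled siRNA. The groups stood apart at this low level, with a mean ratio of 0.747, but the log2 fold change of -0.22 did not pass (95% interval -0.46 to 0.03, adjusted p = 0.20), and this scale understates changes near 1 FPKM.

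**Figure D2:**
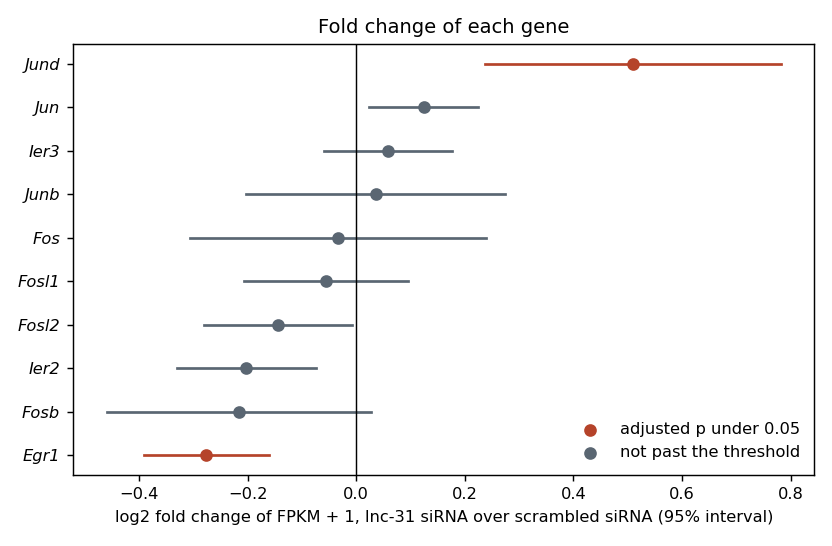
log2 fold change of FPKM + 1, lnc-31 siRNA over scrambled siRNA, for each gene with its 95% interval from the limma fit. Red marks the 2 genes with an adjusted p under 0.05, Jund at 0.51 and Egr1 at -0.28, and the intervals of Jun, Fosl2 and Ier2 also leave out 0 before adjustment.

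Egr1 encodes a zinc finger factor that growth signals induce through SRF. It had 20.3 and 20.4 FPKM in the lnc-31 siRNA libraries, against 25.4 and 24.3 FPKM in the scrambled siRNA libraries. The lnc-31 siRNA libraries agreed closely and both lay below the other group. Mean FPKM was 20.3 ± 0.0139 with lnc-31 siRNA and 24.8 ± 0.771 with scrambled siRNA (SD, n = 2 each), a ratio of 0.819, and the log2 fold change was -0.28 (limma, 95% interval -0.39 to -0.16, adjusted p = 0.023). The call was lost with any 1 of the 4 libraries left out (adjusted p = 0.077 to 0.11), while the log2 fold change stayed between -0.31 and -0.25.

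Ier2, which encodes a small nuclear protein, had 14.1 and 14.9 FPKM with lnc-31 siRNA, against 16.66 and 16.99 FPKM with scrambled siRNA. The groups did not overlap, and the log2 fold change of -0.20 missed the threshold (95% interval -0.33 to -0.07, limma adjusted p = 0.061). It passed with quantile normalization (0.039) or with median of ratios scaling (0.038). Ier3, a stress-induced gene known as a survival factor, had 39.2 and 39.2 FPKM with lnc-31 siRNA, against 38.8 and 36.4 FPKM with scrambled siRNA, and did not pass (log2 fold change 0.06, 95% interval -0.06 to 0.18, adjusted p = 0.45). The 10 genes did not share a direction, with 4 fold changes above 0 and 6 below.

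The make-up of the AP-1 pool was described from shares of summed FPKM, which is scaled to length. Jund made up 12.8% and 14.6% of the Jun family's FPKM with lnc-31 siRNA, against 10.6% and 10.1% with scrambled siRNA. Its share was therefore higher in each lnc-31 siRNA library, and the shares of Jun (45.7% and 41.7%, against 42.1% and 46.0%) overlapped between groups. Junb's share was lower in each lnc-31 siRNA library, at 41.5% and 43.7%, against 47.4% and 43.9% with scrambled siRNA. The nearest libraries, at 43.7% and 43.9%, were close, and the FPKM of Junb itself overlapped between groups. Shares within a family are not independent, because a higher share of Jund leaves less for Jun and Junb. The Jun family as a whole took 65.2% and 66.4% of all AP-1 FPKM with lnc-31 siRNA, against 62.5% and 62.0% with scrambled siRNA. Within the Fos family, Fosl1 held 68.9% and 65.9% with lnc-31 siRNA, against 67.1% and 65.2% with scrambled siRNA. Fosb held 1.42% and 1.44%, against 1.81% and 1.80%. With 2 libraries against 2 an exact permutation test cannot go below p = 0.333 (two-sided), and no test was run on these shares.

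**Figure D3:**
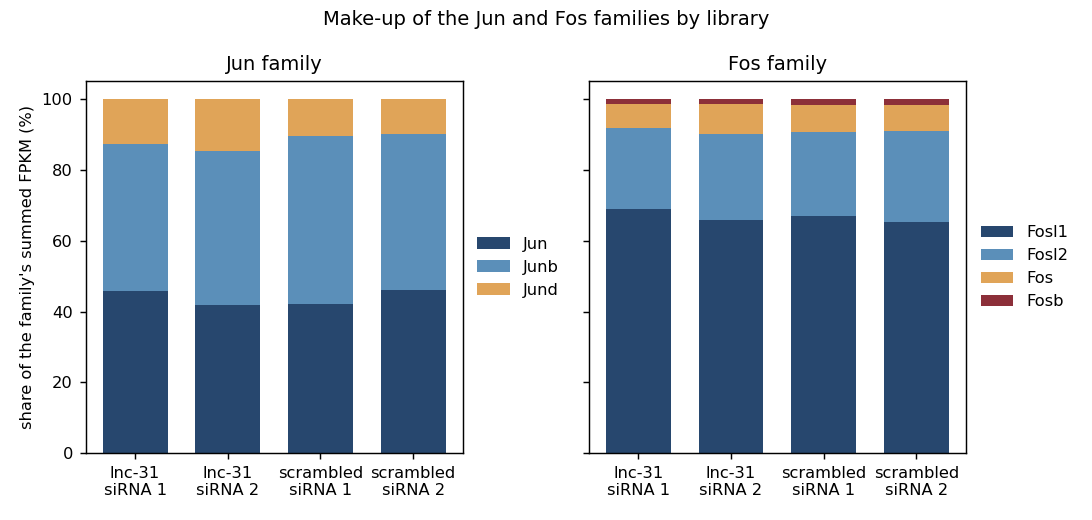
Share of each gene in the summed FPKM of the Jun family (left) and the Fos family (right), as stacked bars by library, with lnc-31 siRNA libraries left of scrambled siRNA libraries. The Jund segment is 12.8% and 14.6% in the lnc-31 siRNA libraries, against 10.6% and 10.1% in the scrambled siRNA libraries, and Fosl1 fills over 65% of every Fos family bar.

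Genes that feed into or answer to AP-1 were read from the same fit, in lists chosen with earlier results of these data known. Among 28 rows of MAP kinase signalling, SRF, its partners and CREB, 4 fell and none rose (3 were higher at an unadjusted p under 0.05), with a median log2 fold change of -0.02. Over all rows 12.4% were called, 5.64% higher and 6.78% lower. The total of 4 of 28 is near the 12.4%, but all 4 were lower. Srf itself had 9.73 and 10.8 FPKM with lnc-31 siRNA, against 16.7 and 17.4 FPKM with scrambled siRNA (log2 fold change -0.68, limma adjusted p = 0.0075), and was called with any 1 library left out. The kinase genes Mapk14, which encodes p38α (-0.29), and Rps6ka4, which encodes MSK2 (-0.27), were among those that fell. Each of the pair lost its call with any 1 library left out (adjusted p = 0.057 to 0.11), and in those fits Srf was the 1 call of the list. Mapk3 (ERK1, -0.16) and Map2k3 (-0.18) were both at adjusted p = 0.057. Both passed under quantile normalization, median of ratios scaling, a mean of at least 5 FPKM and the replicate block. The list's counts were 7 lower and 1 higher under either scaling, 6 lower and 1 higher with a mean of at least 5 FPKM, and 7 lower and none higher with the replicate block. The list's rows for Elk1, Elk4 and Map2k7 are merged with another gene.

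Other bZIP factors, which can share partners or sites with AP-1, were higher more often than lower. Of 18 tested rows 9 rose and 1 fell, where 5.64% of all rows rose and 6.78% fell. Of the list's 20 rows, tested or not, 2 are merged with another gene. The median log2 fold change was 0.24, against -0.01 over all rows. Atf3, a stress-induced factor that pairs with Jun, had 4.44 and 4.54 FPKM with lnc-31 siRNA, against 1.87 and 1.57 FPKM with scrambled siRNA (log2 fold change 1.02, limma adjusted p = 0.0057). Ddit3 (CHOP, 0.90 on the log2 scale), Atf5 (0.79), Nfe2l1 (0.44), Atf4 (0.39) and Bach1 (0.27) rose too. Atf4, Atf5 and Ddit3 are known chiefly from the integrated stress response. The counts depended on the libraries: leaving out lnc-31 siRNA 1 or 2 left 6 and 5 higher, leaving out scrambled siRNA 1 or 2 left 3 and 4, and none was lower in these fits. Nfe2l1 lost its call without scrambled siRNA 1 (adjusted p = 0.055), Atf4 without scrambled siRNA 1 (0.069) or scrambled siRNA 2 (0.054), and Bach1 without any 1 library (0.083 to 0.13).

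Immediate early genes outside the 10 moved in both directions. Of 37 tested, 12 rose and 6 fell, where 5.64% of all rows rose and 6.78% fell, and the median log2 fold change was 0.11. Rhob, a small GTPase gene induced by growth factors and damage, had 98.4 and 105 FPKM with lnc-31 siRNA, against 63.7 and 65.3 FPKM with scrambled siRNA (log2 fold change 0.65, limma adjusted p = 0.0053). Ptgs2, which encodes the prostaglandin enzyme COX-2 (0.63), the transcription factor Klf4 (0.51) and the repressor Nfil3 (0.67) rose as well. Zfp36l2, which encodes an mRNA decay factor (-0.47), and Klf10, a TGF-beta-induced factor (-0.34), fell. All 6 but Klf10 were called with any 1 library left out, and Klf10 was not without scrambled siRNA 1 (0.067) or scrambled siRNA 2 (0.065). Leaving out lnc-31 siRNA 1 left 7 higher and 3 lower, and leaving out lnc-31 siRNA 2 left 5 and 5. Leaving out scrambled siRNA 1 left 6 higher and 1 lower, and leaving out scrambled siRNA 2 left 5 and 1.

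Feedback brakes are phosphatases and inhibitors of MAP kinase signalling and repressors of Egr1 or AP-1 activity. Among their 23 rows, 1 of them merged with another gene, 3 rose and 1 fell (median 0.02). Over all rows 12.4% were called, 5.64% higher and 6.78% lower. Dusp6, an ERK phosphatase gene, had 38.95 and 38.26 FPKM with lnc-31 siRNA, against 29.7 and 31.1 FPKM with scrambled siRNA (log2 fold change 0.34, limma adjusted p = 0.013). Dusp10, for a phosphatase of JNK and p38 (0.39), and the Ras pathway inhibitor Spry2 (0.31) also rose, and the nuclear ERK phosphatase gene Dusp5 (-0.37) fell. Except for Dusp10 without lnc-31 siRNA 1 (adjusted p = 0.041), the 4 lost their calls with any 1 library left out (0.050 to 0.084).

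Textbook AP-1 targets split in direction, and whether AP-1 drives them in these cells was not tested. Of 24 tested, 5 rose and 7 fell, where 5.64% of all rows rose and 6.78% fell, with a median of 0.03. Hmox1, the heme oxygenase gene, had 220 and 242 FPKM with lnc-31 siRNA, against 356 and 352 FPKM with scrambled siRNA (log2 fold change -0.61, limma adjusted p = 0.0063). The metallothioneins Mt2 (-0.53) and Mt1 (-0.46), cyclin D1 (Ccnd1, -0.49) and the chromatin protein Hmga1 (-0.28) fell, and the urokinase gene Plau (0.30) rose. Hmox1, Ccnd1 and Mt2 were called with any 1 library left out, Mt1 was not without scrambled siRNA 1 (0.051), and Hmga1 and Plau were not without any 1 library (0.054 to 0.096). In those fits 3 or 4 of the list fell and none rose, and with a constant prior variance 1 rose.

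**Figure D4:**
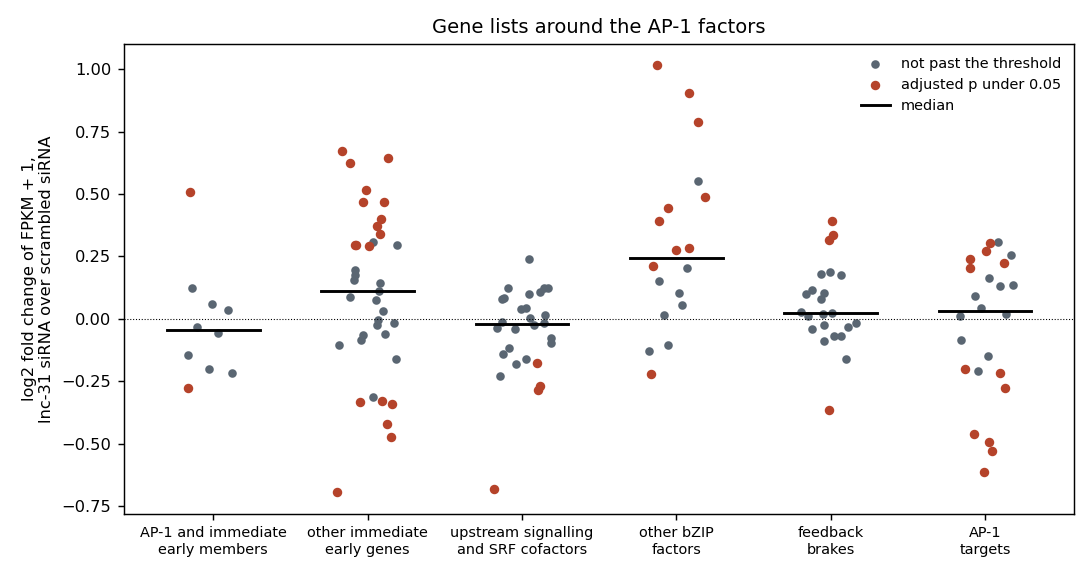
log2 fold change of FPKM + 1, lnc-31 siRNA over scrambled siRNA, for the 10 genes and for 5 lists around them, each point 1 row and the black line the median. Red points have an adjusted p under 0.05, and the other bZIP factors have the highest median, 0.24, with 9 of 18 rows higher.

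The rows most like the called genes were sought by the distance between profiles over the 4 libraries (deviations of log2(FPKM + 1) from a gene's own mean). For Jund they were Cd53, a tetraspanin gene of blood cells at 3.15 and 3.87 FPKM with lnc-31 siRNA against 2.26 and 1.91 FPKM with scrambled siRNA (distance 0.050), and Bbc3, which encodes the p53 target PUMA (0.054). For Egr1 they were Sipa1, for a Rap GTPase activator (0.011), and Diap3, for a formin that nucleates actin (0.013), at 24.7 and 24.5 FPKM with lnc-31 siRNA against 30.9 and 29.4 FPKM with scrambled siRNA. With 4 libraries many rows lie close together.

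In the pull-down, 1 of the 10 genes, Fosl1, held a peak with lnc-31 probes and none held a peak with lacZ probes. The Fosl1 peak was 200 bases wide (chromosome 19, 5452801 to 5453000, mm10) and lay inside the gene span (5447698 to 5455938, from RefSeq on GRCm38.p6, which has the coordinates of mm10), 5103 bases from its lower end. Whether it lies in an exon was not analysed here. It did not overlap a lacZ peak, and the authors' value for it, read as a p from its range alone, was 0.000514, where lnc-31 probe peaks ran from 2.05e-07 to 0.00999. Over all 12323 table genes placed by RefSeq, 1.78% held a lnc-31 probe peak and 1.68% a lacZ peak. With 1 library per probe set there is no replicate check and no test, and no peak of either list lay within 20000 bases of the other 9 genes.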

How the data were processed

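Per the labels' protocols, the 4 siRNA libraries came from a TruSeq stranded mRNA kit and those of the pull-down from a NuGEN Ovation kit. For the siRNA libraries, FPKM values were deposited by the authors. The submitters' processing notes list CASAVA, Trimmomatic, Bowtie2, BWA, TopHat2 and Cuffdiff with mm10, without roles or versions, and do not say whether Cuffdiff's library scaling entered the FPKM. The deposited peak lists carry 1 value per peak, read as a p-value from its range. No label names the peak caller. The input library was not analysed here.

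Rows with a mean of at least 1 FPKM (11500 of 13376) were compared on log2(FPKM + 1) with limma 3.58.1 in R 4.3.3 (trended prior variance, two-sided, Benjamini-Hochberg adjustment over all rows, called at 0.05). Fold changes are on that scale and understate changes of low genes. FPKM carries no depth, so precision comes only from the 2 libraries per group. Peaks were assigned to RefSeq gene spans on GRCm38.p6 by an overlap of at least 1 base, and promoter letters came from RefSeq on the same build (7 of 10 genes with an entry). The Fosb entry overlaps its gene span, and the stretch is not shown. Python 3.11.15, pandas 2.3.3, numpy 2.4.6, scipy 1.17.1 and matplotlib 3.10.9 were used. The text names every one of the 10 genes, up to 6 rows per list by smallest p, apart from 1 row that is not reported here, the 2 nearest profiles of each called gene and the Mir31 row. The genes and lists were chosen with earlier results of these data known. Alternatives covered pseudocount, filter, scaling, prior variance, a replicate block, each library left out, and peak overlap rules.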

Additional observations from a re-analysis of the deposited data

How the results depend on the processing

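The count of the 10 genes that rose was 0 in place of 1 with no filter, with a constant prior variance and in the fit with the replicate block, where Jund missed the threshold (limma; 2, 1 and 2 of them were higher at an unadjusted p under 0.05 in those fits). The count that fell was 2 in place of 1 under quantile normalization and median of ratios scaling, which added Ier2. With 1 library left out, 0 or 1 rose and 0 fell (1 or 2 higher and 1 to 3 lower at an unadjusted p under 0.05), while over all rows 132 to 266 rose and 97 to 242 fell in place of 649 and 780. These fits hold fewer samples. In the same fits the log2 fold change of Fos ran from -0.161 to 0.094, of Fosl1 from -0.129 to 0.0183 and of Junb from -0.087 to 0.159, and these 3 changed sign. The other 7 genes kept their sign under every alternative run. No scaling moved the median fold change of all rows by 0.1.

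Replicate numbers pair nothing in the labels, and deviations of same-numbered libraries correlated at -0.094, so the replicate block is given as an alternative only. With it 728 rows rose and 885 fell. It left Egr1 called and ended the call of Jund (adjusted p = 0.061). The counts of peaks in the 10 genes, 1 with lnc-31 probes and 0 with lacZ probes, were the same under each overlap rule. Depth is unknown, and 2 libraries per group limit every comparison.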
